A study of Mus musculus with 4 samples.

Results

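Long noncoding RNAs are transcripts that are processed like messenger RNAs but code for no known protein. The 10 described here are Meg3, Rian, Mirg, Miat, Rmst, Malat1, Neat1, Snhg11, Six3os1 and Vax2os, which are known from neurons, the eye field or the cell nucleus at large. They were taken by gene name from a table of 55471 gene IDs, of which 9914 have a long noncoding biotype in GENCODE mouse release M21. All 10 were found in the table, and all 10 had enough reads to be tested. Snhg11 is annotated as protein_coding in that release, and the other members as lincRNA, antisense or processed_transcript.

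Amacrine cells are inhibitory neurons that act on bipolar and ganglion cells. The RNA came from cells sorted as labelled amacrine cells from retinas of C57BL6 mice at postnatal days 6 to 7. All mice carried the alleles Gbx2-CreERT2-IRES-EGFP and Ai9: the Gbx2 gene drives both an inducible Cre recombinase and EGFP, and Ai9 makes tdTomato in cells in which Cre has acted and in their descendants. Sorted tdTomato cells were parted into a GFP-positive fraction (replicates 2 and 3) and a GFP-negative fraction (replicates 2 and 6), so that the fractions differ in their GFP signal at the time of sorting and share both alleles. The submitters state 4 biological replicates from 3 litters, 750 to 2500 sorted cells per RNA sample and a sample of each fraction from each animal. The 4 libraries analysed here were made with a low-input SMART-Seq kit, and the comparison asks how the GFP-positive cells differ from the GFP-negative cells.

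Some of these RNAs have well-studied roles. Meg3, Rian and Mirg lie in a row in the imprinted Dlk1-Dio3 domain and are expressed from the maternal chromosome, where Rian hosts small nucleolar RNAs and Mirg hosts microRNAs. Malat1 sits in nuclear speckles, stores of splicing factors, and Neat1 is the scaffold of paraspeckles, which hold RNA-binding proteins back in the nucleus. Miat, also called Gomafu, forms its own nuclear bodies in neurons, and Rmst binds Sox2 in human neural cells. Six3os1 and Vax2os are transcribed opposite the homeobox genes Six3 and Vax2, which pattern the eye.

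Libraries held 44689917 and 43272827 counts in GFP-positive replicates 2 and 3, and 41153704 and 41040667 counts in GFP-negative replicates 2 and 6. Levels are given as CPM, counts scaled to the effective size of each library, and 3 counts correspond to 0.0630 to 0.0837 CPM. GFP-negative replicate 6 stood apart from the other libraries in several ways that bear on these RNAs. Genes of long noncoding biotypes took 1.18% and 1.41% of counts in GFP-positive replicates 2 and 3, against 1.06% and 0.689% in GFP-negative replicates 2 and 6. Amacrine markers summed to 4695 and 3934 CPM in the GFP-positive libraries and 3367 and 5088 CPM in the GFP-negative libraries, with none of the 10 at 0 in all libraries. Markers of rods, the photoreceptors of dim light, summed to 11100 and 19050 CPM in the GFP-positive libraries, against 9784 and 2440 CPM for GFP-negative replicates 2 and 6. RNA of other retinal cell types was therefore present beside that of amacrine genes, and the rod sum exceeded the amacrine sum in every library but GFP-negative replicate 6. Cone markers summed to 330 and 642 CPM in the GFP-positive libraries against 341 and 39.4 CPM for GFP-negative replicates 2 and 6. All 16 rod markers and all 6 cone markers were lowest in GFP-negative replicate 6, as were 7 of 8 bipolar cell markers, and no rod, cone or bipolar marker was at 0 in all libraries. The 37 mitochondrial genes summed to 4955 and 5957 CPM in the GFP-positive libraries against 7264 and 2135 CPM for GFP-negative replicates 2 and 6. The part of these differences in the results below was not tested. In bulk samples like these, fewer cells of a type and less RNA per cell cannot be told apart.

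None of the 10 long noncoding RNAs passed an adjusted p of 0.05 between GFP-positive and GFP-negative cells in edgeR's quasi-likelihood test with Benjamini-Hochberg adjustment over 17940 genes, where 1.1% of all tested genes passed. DESeq2 called 1 of them, where it called 4.59% of all tested genes, and limma-voom called 0, with 0.513% of all tested genes. At an unadjusted p under 0.05, 1 member (Six3os1) remained, against 12.6% of all tested genes. The log2 fold change, GFP-positive minus GFP-negative, was above 0 for 8 members and below 0 for Six3os1 and Rian. Its median over the members was 0.58, against 0.04 over all tested genes and 0.49 over the 1912 tested genes of long noncoding biotypes. The fractions did not overlap in CPM for 3 of 10 members, against 43.8% of all tested genes. Miat and Rmst were higher in both GFP-positive libraries, as were 22.5% of tested genes, and Six3os1 was lower in both, as were 21.3%. With 2 libraries against 2, the smallest p of an exact two-sided permutation test for 1 gene is 0.333.

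The GFP-negative libraries differed from each other by 1.42-fold (Rian) to 24.9-fold (Neat1) in the members other than Six3os1, in each case more than the means of the fractions did. In 9 of 10 members the lowest library was GFP-negative replicate 6, which was the lowest for 33% of all tested genes and 49.8% of tested genes of long noncoding biotypes. Six3os1 was the exception, with its lowest value in GFP-positive replicate 2. When GFP-negative replicate 6 was left out, 5 members had a log2 fold change above 0 and 5 below 0, with a median of -0.03, and none passed edgeR's adjusted p, which 0.00498% of all tested genes did. When GFP-negative replicate 2 was left out instead, 9 members were above 0 with a median of 1.67, and 1 of them passed, against 1.71% of all tested genes. None passed without GFP-positive replicate 2 or without GFP-positive replicate 3, where 0.55% and 0.026% of all tested genes did. Each of these fits leaves a fraction with a single library, which is taken to vary like the others.

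**Figure D1:**
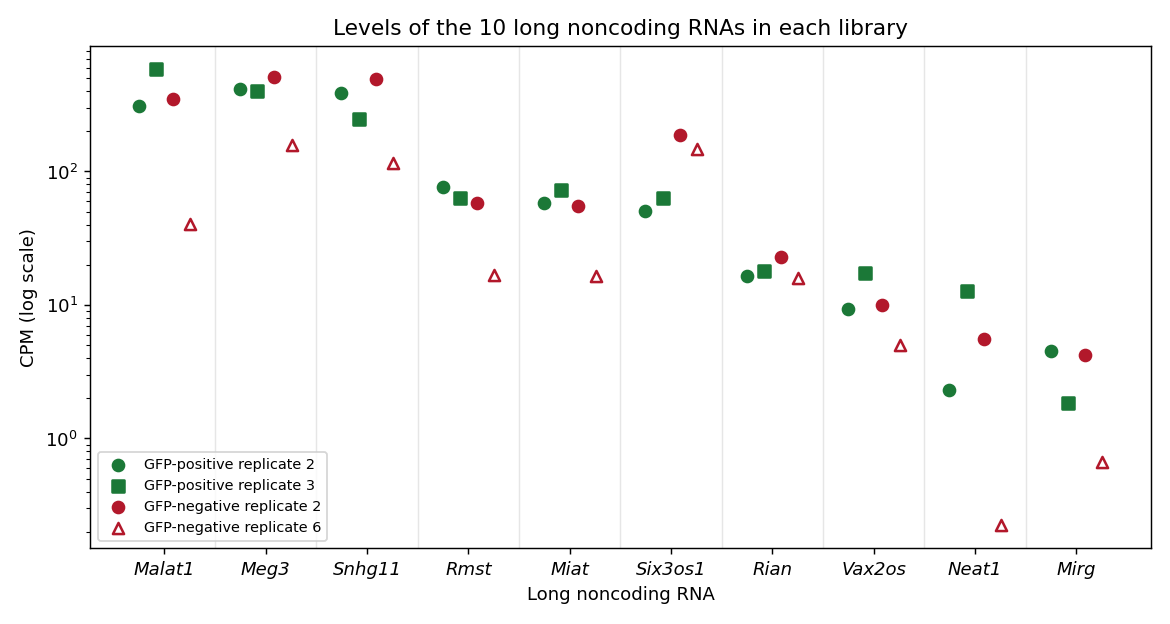
Level of each long noncoding RNA in every library, in CPM on a log10 axis, with GFP-positive libraries to the left of GFP-negative libraries. GFP-negative replicate 6 is the lowest point for every RNA but Six3os1, from 0.223 CPM for Neat1 to 157 CPM for Meg3.

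**Figure D2:**
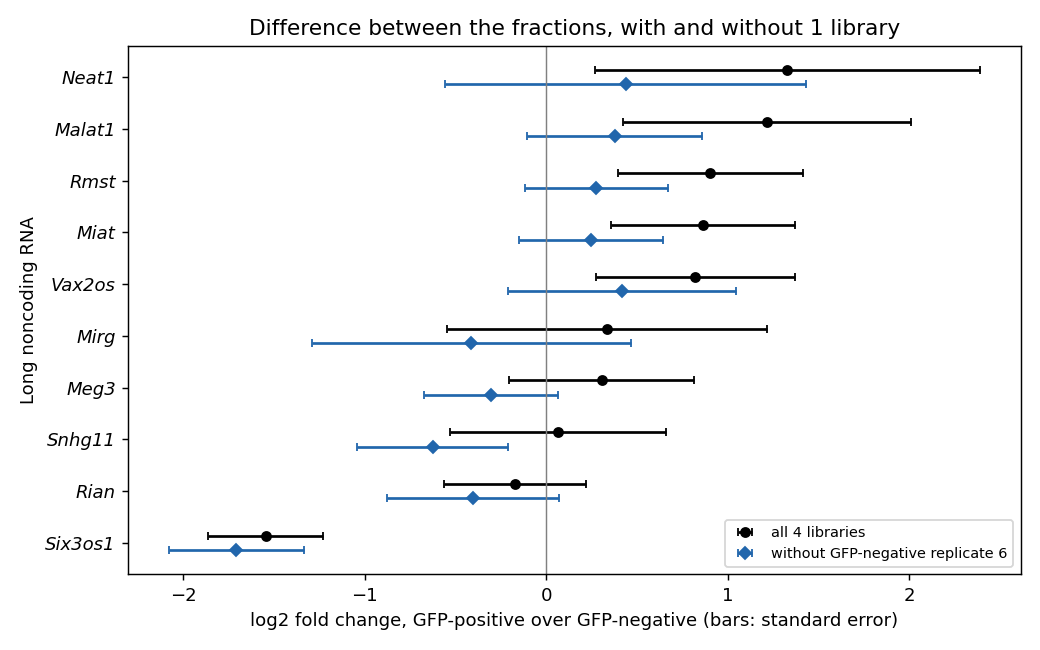
Log2 fold change of each RNA, GFP-positive minus GFP-negative, from edgeR with all 4 libraries and without GFP-negative replicate 6, each with its standard error. The points without GFP-negative replicate 6 lie between -0.63 and 0.44 for all RNAs but Six3os1. Six3os1 lies at -1.54 with all 4 libraries and at -1.71 without GFP-negative replicate 6.

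Meg3 begins the maternal transcripts of the Dlk1-Dio3 domain on chromosome 12 (ENSMUSG00000021268, 109541001 to 109571726, plus strand, GRCm38), and its start region is shown because it opens that run of transcripts. The sequence covers 250 bases before to 50 bases after the start (RefSeq, GRCm38.p6, chr12:109540746-109541045, plus strand). Capitals mark a CCAAT box, a cyclic AMP response element (TGACGTCA) and an overlapping pair of TATAAA matches on opposite strands.
Meg3: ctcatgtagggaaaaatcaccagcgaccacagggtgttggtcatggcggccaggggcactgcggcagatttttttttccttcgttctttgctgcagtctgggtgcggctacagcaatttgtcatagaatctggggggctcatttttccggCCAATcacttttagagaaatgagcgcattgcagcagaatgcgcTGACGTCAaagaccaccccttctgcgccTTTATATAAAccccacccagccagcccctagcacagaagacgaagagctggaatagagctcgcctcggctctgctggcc
The response element is found in 1.79% of the 32851 promoter windows of that table, TATAAA in 13.6% and CCAAT in 37.4%, counting both strands. The window holds 13 CpG dinucleotides, more than 62.1% of these windows. A second Meg3 window, chr12:109545148-109545447, has 0 of these matches and 1 CpG dinucleotide, more than 5.43% of the windows. These matches describe letters only. The promoter table gave an entry for 8 of the 10 members.

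Meg3 was among the most abundant of the members, at 416 and 404 CPM in GFP-positive replicates 2 and 3 and at 507 and 157 CPM in GFP-negative replicates 2 and 6. The GFP-positive libraries lay within the range of the GFP-negative libraries, which differed 3.24-fold. The log2 fold change of Meg3 came to 0.30 ± 0.51 (± standard error), and it did not pass (edgeR adjusted p = 0.862). Rian stood at 16.4 and 17.95 CPM in the GFP-positive libraries, against 22.7 and 15.9 CPM in the GFP-negative libraries, and its log2 fold change came to -0.17 ± 0.39 (edgeR adjusted p = 0.903). Rian varied least of the members over the 4 libraries: the mean of the other 3 was 1.19-fold the level of GFP-negative replicate 6, against 2.82-fold for Meg3. Mirg was low, with 207 and 88 counts in GFP-positive cells, against 177 and 24 counts in GFP-negative cells. These counts gave 4.52 and 1.85 CPM in GFP-positive cells and 4.23 and 0.670 CPM in GFP-negative cells, overlapping ranges with a log2 fold change of 0.33 ± 0.88 (edgeR adjusted p = 0.921).

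Rian (ENSMUSG00000097451, chromosome 12, 109603940 to 109661716) and Mirg (ENSMUSG00000097391, 109729764 to 109749460) start 62.9 and 189 kb from Meg3, on the same strand. The RefSeq miRNA table places 14 microRNA hairpins within the span of Mirg, 3 within Rian and 1 within Meg3 on the same strand. The small RNA genes whose exons overlap those of the 3 RNAs on the same strand had at most 3 counts in any library. Gm26906, a lincRNA that shares 1228 exonic bases with Meg3 on the opposite strand, has no gene ID in the count table. The coding genes of the domain that are expressed from the paternal chromosome were near the limit of counting. Dlk1, a Notch-related membrane protein gene, stood at 0.590 and 0.778 CPM in GFP-positive and 0.239 and 0.0558 CPM in GFP-negative libraries, the last of these from 2 counts. Rtl1, a retrotransposon-derived gene, had 0 and 15 counts in GFP-positive cells, against 23 and 5 counts in GFP-negative cells. Dio3, a thyroid hormone deiodinase gene, had 38 counts in GFP-positive replicate 3 and 0 in the other libraries, and was not tested in edgeR. Begain, at the edge of the domain, stood at 26.1 and 23.0 CPM in the GFP-positive libraries and 22.9 and 15.8 CPM in the GFP-negative libraries (edgeR adjusted p = 0.774). Of the 8 listed genes of the domain, these 3 RNAs included, 6 were tested in edgeR and 5 of the 6 were lowest in GFP-negative replicate 6. None passed in edgeR, DESeq2 or limma-voom, and 0 had an unadjusted edgeR p under 0.05.

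Malat1 is a single-exon RNA of 6983 bases on chromosome 19 (ENSMUSG00000092341, 5795690 to 5802672, minus strand). It stood at 312 and 588 CPM in GFP-positive replicates 2 and 3, and at 347 and 40.2 CPM in GFP-negative replicates 2 and 6. GFP-negative replicate 2 lay between the GFP-positive libraries, and GFP-negative replicate 6 lay far below them, with 1440 counts against 14271 to 27992 in the other libraries. The log2 fold change came to 1.22 ± 0.80 (edgeR adjusted p = 0.583). Without GFP-negative replicate 6 it was 0.38, and without GFP-negative replicate 2 it was 3.43 with an edgeR adjusted p of 0.0318, the only call of a member in the fits that leave out a library. Neat1 (ENSMUSG00000092274, 5824708 to 5845478), a single-exon RNA of 20771 bases whose start lies 42.8 kb from that of Malat1 on the same strand, was much lower. It had 106 and 602 counts in the GFP-positive libraries, against 233 and 8 in the GFP-negative ones, or 2.32 and 12.7 CPM in GFP-positive against 5.57 and 0.223 CPM in GFP-negative cells. Neat1 was the most variable member within each fraction, 5.46-fold between the GFP-positive and 24.9-fold between the GFP-negative libraries. Its log2 fold change came to 1.33 ± 1.06 (edgeR adjusted p = 0.661), and it was -0.36 without GFP-positive replicate 3.

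The low value of GFP-negative replicate 6 was not shared by Frmd8, the nearest coding gene at higher coordinates. Frmd8 stood at 10.6 and 6.39 CPM in the GFP-positive libraries and at 9.72 and 13.6 CPM in the GFP-negative libraries, its highest value being in replicate 6. All 15 listed genes for proteins of speckles and paraspeckles were tested, and 0 passed in edgeR, DESeq2 or limma-voom or had an unadjusted edgeR p under 0.05. Their median log2 fold change was 0.10. Hnrnpk, which encodes a nuclear RNA-binding protein, had 1307 and 1051 CPM in GFP-positive cells and 1185 and 1481 CPM in GFP-negative cells. Ewsr1, another of these RNA-binding protein genes, had 604 and 589 CPM in GFP-positive cells and 577 and 533 CPM in GFP-negative cells.

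Miat lies on chromosome 5 (ENSMUSG00000097767, 112213228 to 112229395, minus strand) and is known for repeats of the letters TACTAAC, the sequence that the splicing factor Sf1 recognises at intron branch points. A stretch of 150 bases of its longest transcript in GENCODE M21 is shown because it holds 3 of the 6 copies in that transcript, in capitals (transcript bases 4923 to 5072, chr5:112217319-112217468, minus strand, GRCm38).
Miat: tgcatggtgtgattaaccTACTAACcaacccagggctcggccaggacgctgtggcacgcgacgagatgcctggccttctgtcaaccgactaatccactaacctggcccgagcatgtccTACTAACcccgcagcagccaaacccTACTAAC
All 6 copies lie between bases 4941 and 5629 of the transcript. Of 9915 genes, those of long noncoding biotypes and the members, 3.65% have at least 1 copy in their longest transcript, and 2 of them, Miat included, have 6 or more.

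Miat stood at 58.4 and 72.7 CPM in the GFP-positive libraries and at 55.4 and 16.5 CPM in the GFP-negative libraries. The ranges were separate by a narrow margin, since GFP-negative replicate 2 lay close to GFP-positive replicate 2. Its log2 fold change of 0.86 ± 0.51 did not pass (edgeR adjusted p = 0.538), and it was 0.25 without GFP-negative replicate 6 and 1.94 without GFP-negative replicate 2 (edgeR adjusted p = 0.0908). Rmst, on chromosome 10 (ENSMUSG00000112117, 92071037 to 92165170, minus strand), followed the same order of fractions, with 77.0 and 63.6 CPM in GFP-positive against 58.1 and 16.9 CPM in GFP-negative libraries. Its log2 fold change came to 0.90 ± 0.51 (edgeR adjusted p = 0.521) with all libraries, 0.28 without GFP-negative replicate 6 and 2.00 without GFP-negative replicate 2 (edgeR adjusted p = 0.0805). Both RNAs differed little between the GFP-positive libraries, 1.24-fold for Miat and 1.21-fold for Rmst. Gm27544, an annotated RNA that shares 50 exonic bases with Rmst on the same strand, had 62 and 19 counts in GFP-positive and 48 and 10 counts in GFP-negative libraries. Gm26953, antisense to Miat, shares 2260 of the 9293 exonic bases of Miat. It had 29 and 13 counts in GFP-positive and 11 and 9 counts in GFP-negative libraries. Gm26700, antisense to Rmst, has no gene ID in the count table. The sources used here do not say how reads of such overlaps were assigned, nor whether strand was used.

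Of 17 listed RNA-binding partners and neuronal splicing factors 16 were found and tested, and 2 of them fell in GFP-positive cells while none rose (0.87% of all tested genes fell). Rbfox1, a neuronal splicing factor gene, fell to 23.8 and 9.02 CPM in GFP-positive libraries, against 119 and 141 CPM in GFP-negative libraries, with a log2 fold change of -2.99 ± 0.47 (edgeR adjusted p = 0.0270). Elavl2, which encodes a neuronal protein that binds AU-rich RNA, fell to 18.99 and 13.8 CPM in GFP-positive libraries, against 57.4 and 98.9 CPM in GFP-negative libraries, with a log2 fold change of -2.25 ± 0.39 (edgeR adjusted p = 0.0360). Both calls rest on single libraries: the edgeR adjusted p of Rbfox1 was 0.112 when GFP-positive replicate 3 was left out and 0.189 when GFP-negative replicate 6 was. That of Elavl2 was 0.0860 when GFP-positive replicate 2 was left out, 0.262 for GFP-positive replicate 3 and 0.340 for GFP-negative replicate 6. Neither passed with no filter or in the legacy edgeR fit, at adjusted p values of 0.0506 and 0.0992 for Rbfox1 and 0.0731 and 0.09999 for Elavl2, and limma-voom called Rbfox1 only. DESeq2 called both and Elavl4, a relative of Elavl2 with 155 and 127 CPM in GFP-positive libraries and 292 and 502 CPM in GFP-negative libraries (edgeR adjusted p = 0.143). The most abundant genes of the list, Celf4 and Hnrnpa2b1, did not pass, at adjusted p values of 0.644 and 0.776 in edgeR. Sf1 had 270 and 232 CPM in GFP-positive cells and 237 and 234 CPM in GFP-negative cells. Celf3, another protein reported to bind Miat, had 70.6 and 112 CPM in GFP-positive cells and 84.2 and 67.7 CPM in GFP-negative cells. Sox2, the reported partner of Rmst, had 9.35 and 8.17 CPM in GFP-positive cells and 3.63 and 5.16 CPM in GFP-negative cells, and did not pass (edgeR adjusted p = 0.494).

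Snhg11, named as a host gene of a small nucleolar RNA, lies on chromosome 2 (ENSMUSG00000044349, 158375638 to 158386145, plus strand). It stood at 387 and 248 CPM in GFP-positive replicates 2 and 3 and at 491 and 116 CPM in GFP-negative replicates 2 and 6. The GFP-positive values lay within the GFP-negative range, and its log2 fold change lay nearest to 0 among the members, at 0.07 ± 0.60 (edgeR adjusted p = 0.984). It ran from -0.63 without GFP-negative replicate 6 to 1.401 without GFP-negative replicate 2. The small nucleolar RNA gene within its exons, Gm25187, had 0 counts in every library. Its coding neighbour Ralgapb, a subunit gene of a Ral GTPase activator, had 69.4 and 43.8 CPM in GFP-positive and 63.6 and 49.8 CPM in GFP-negative libraries.

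Six3os1 was the only one of the 10 RNAs with a lower level in both GFP-positive libraries than in either GFP-negative library. It lies on chromosome 17 (ENSMUSG00000093460, 85600651 to 85618398, minus strand), and its start in GENCODE is 4790 bases from that of Six3, on the opposite strand. The RefSeq start windows of both genes are shown because the pair overlaps on opposite strands and had the same order of fractions (RefSeq, GRCm38.p6, chr17:85618347-85618646, minus strand, for Six3os1, and chr17:85620584-85620883, plus strand, for Six3). The Six3 window lies beyond the span of Six3os1, so its start is not the GENCODE start used for the distance above. Capitals mark CCAAT boxes and GC boxes (GGGCGG) on either strand.
Six3os1: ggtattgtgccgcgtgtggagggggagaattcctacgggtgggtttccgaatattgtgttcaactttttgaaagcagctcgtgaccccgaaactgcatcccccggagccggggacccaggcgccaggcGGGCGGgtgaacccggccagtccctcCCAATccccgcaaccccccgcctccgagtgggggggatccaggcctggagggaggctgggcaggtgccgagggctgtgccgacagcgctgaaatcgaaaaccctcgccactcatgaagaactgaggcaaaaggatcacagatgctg
Six3: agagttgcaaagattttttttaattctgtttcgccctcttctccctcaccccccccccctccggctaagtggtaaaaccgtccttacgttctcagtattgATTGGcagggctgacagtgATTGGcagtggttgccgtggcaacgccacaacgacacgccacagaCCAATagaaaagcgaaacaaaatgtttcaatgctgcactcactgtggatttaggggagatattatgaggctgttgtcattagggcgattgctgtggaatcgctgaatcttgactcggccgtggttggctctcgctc
The Six3os1 window holds 1 CCAAT box, 1 GC box and 20 CpG dinucleotides, and the Six3 window 3 CCAAT boxes, 0 GC boxes and 14 CpG dinucleotides. A GC box is found in 35.7% of promoter windows.

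Six3os1 stood at 50.7 and 63.7 CPM in GFP-positive replicates 2 and 3, and at 187 and 147 CPM in GFP-negative replicates 2 and 6. The ranges were separate, and GFP-negative replicate 6, the lowest library for the other members, was here the second highest. The mean was 57.2 ± 9.20 CPM in GFP-positive and 167 ± 28.7 CPM in GFP-negative cells (SD, n = 2 each), a level 2.92-fold higher in GFP-negative cells. The log2 fold change of -1.54 ± 0.32 did not pass edgeR's quasi-likelihood test (adjusted p = 0.0705). It passed with RLE scaling (edgeR adjusted p = 0.0482, 1.56% of all tested genes called) and with a filter of over 5 CPM in at least 2 libraries (0.0487, 2.17% called). It also passed in DESeq2 (adjusted p = 0.000512, 4.59% called), which made 96 false calls on simulated counts, against 8 for edgeR. It did not pass without any one library, at edgeR adjusted p values of 0.129 to 0.285. The log2 fold change stayed between -1.72 and -1.38 over all 14 alternatives tried.

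Six3, whose product represses Wnt genes in the forebrain and eye, showed the same order of libraries. It had 81.8 and 115 CPM in GFP-positive replicates 2 and 3 and 381 and 315 CPM in GFP-negative replicates 2 and 6. Its log2 fold change came to -1.83 ± 0.34, with an adjusted p of 0.05015 that lay just above 0.05 (edgeR). That value was below 0.05 in 5 of the alternatives, among them RLE scaling (0.0356) and DESeq2 (1.94e-05), and was 0.0775 to 0.262 when a library was left out. Six3os1 and Six3 share 106 exonic bases on opposite strands, and reads from these bases cannot be told apart if strand was not used. The next gene of the cluster, Six2, which is related to Six3, went with neither, at 3.13 and 4.77 CPM in GFP-positive and 2.699 and 0.474 CPM in GFP-negative libraries. The glial and progenitor markers, a cell class in which Six3 is also known, summed to 754 and 919 CPM in GFP-positive and 1707 and 2096 CPM in GFP-negative libraries. The sum does not describe each marker, since 5 of the 10 were lowest in GFP-negative replicate 6. The part of these markers in the result was not tested.

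**Figure D3:**
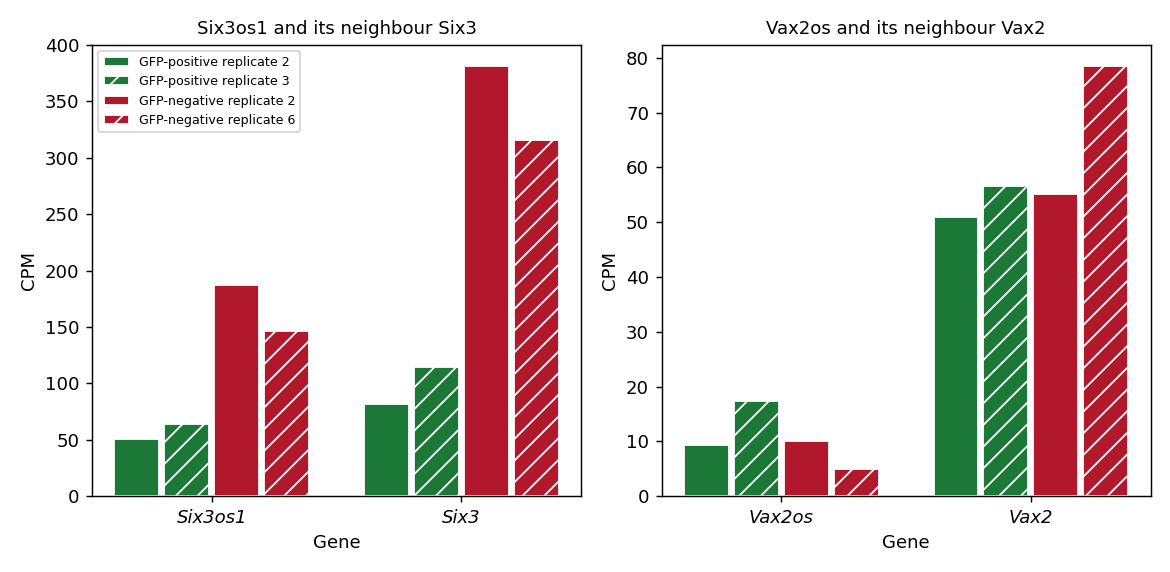
Levels of Six3os1 with Six3 and of Vax2os with Vax2 in each library, in CPM, with GFP-positive libraries to the left. Six3os1 and Six3 are both lower in the 2 GFP-positive libraries, and Vax2os and Vax2 go opposite ways in GFP-negative replicate 6.

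Vax2os, on chromosome 6 (ENSMUSG00000085794, 83692806 to 83712201, minus strand), starts 937 bases from Vax2 on the opposite strand, and the exons of the pair do not overlap. It stood at 9.31 and 17.4 CPM in the GFP-positive libraries and at 10.03 and 4.99 CPM in the GFP-negative libraries. The ranges overlapped, and its log2 fold change came to 0.82 ± 0.55 (edgeR adjusted p = 0.590). It was 0.30 without GFP-positive replicate 3, 0.42 without GFP-negative replicate 6 and 1.36 without GFP-negative replicate 2. Vax2, a homeobox gene of the ventral eye, stood at 51.0 and 56.7 CPM in GFP-positive and 55.1 and 78.5 CPM in GFP-negative libraries, with its highest value in the library where Vax2os was lowest. Of 10 listed homeobox genes beside or tied to retinal antisense RNAs 9 were tested in edgeR and none passed, with a median log2 fold change of 1.15. At an unadjusted edgeR p under 0.05 there were 2, Six3 and Six6, which DESeq2 called and limma-voom did not. Six6, an eye-field homeobox gene related to Six3, went the other way from it, with 515 and 385 CPM in GFP-positive and 144 and 204 CPM in GFP-negative libraries (edgeR adjusted p = 0.155). Pax6, a master gene of eye development, had 1970 and 1285 CPM in GFP-positive and 1468 and 2244 CPM in GFP-negative libraries. Crx, a photoreceptor transcription factor gene that is also a rod marker here, had 554 and 878 CPM in GFP-positive and 588 and 118 CPM in GFP-negative libraries.

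Levels were compared between the RNAs per kilobase of annotated exon. In GFP-positive cells Malat1 was first at 64.5 ± 28.0 CPM per kb, followed by Snhg11 at 37.3 ± 11.5 and Meg3 at 22.7 ± 0.435 (SD, n = 2). Rmst (9.47 CPM per kb), Miat (7.05), Six3os1 (4.81), Vax2os (2.47), Rian (0.940), Mirg (0.437) and Neat1 (0.360) followed as means in GFP-positive cells. Malat1 and Snhg11 overlapped in range over the GFP-positive libraries, as did Mirg and Neat1, while each other pair of neighbours in this order was separate. In GFP-negative cells the order of means was Snhg11 (35.6 CPM per kb), Malat1 (27.8), Meg3 (18.4), Six3os1 (14.03), Rmst (5.06), Miat (3.87), Vax2os (1.39), Rian (1.06), Mirg (0.336) and Neat1 (0.139). By this length Six3os1 stood below Miat and Rmst in GFP-positive cells and above both in GFP-negative cells. Per kilobase of the longest transcript it stood at 10.2 CPM in GFP-positive cells, above Miat (7.15), and at 29.8 CPM in GFP-negative cells, above Malat1 (27.8) and Meg3 (22.8). The lengths behind the full order are those of all annotated exons joined, and exons that these cells do not use lower the value.

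Within GFP-negative replicate 6 the difference from the other libraries was uneven across the members. The log2 ratio of that library to the mean of the other 3, with 0.1 CPM added to each, was -4.43 for Neat1, -3.37 for Malat1, -1.96 for Rmst, -1.91 for Miat, -1.70 for Snhg11, -1.50 for Meg3 and -1.28 for Vax2os. Rian (-0.25) and Six3os1 (0.54) lay within and above the middle range of coding genes, and Mirg was too low to be included. The median over 10939 protein-coding genes of at least 5 CPM was 0.08, with quartiles of -0.36 and 0.47. Over 264 other genes of long noncoding biotypes it was -0.62, with quartiles of -1.58 and 0.08. Transcripts of the GENCODE class TEC, which await experimental support, had a median of -2.03 over 36 genes. Coding genes with more than 16 kb of exon had a median of -0.23 over 277 genes, against 0.11 over 136 genes of up to 1 kb.

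**Figure D4:**
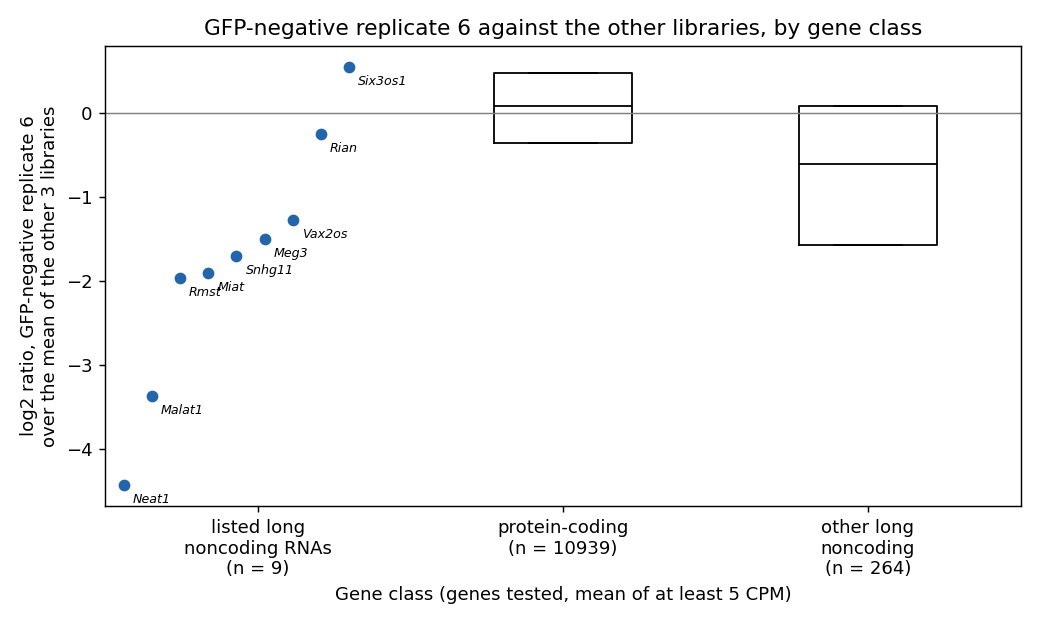
Log2 ratio of GFP-negative replicate 6 to the mean of the other 3 libraries for the listed RNAs (points) beside protein-coding and other long noncoding genes (boxes from the lower to the upper quartile, with a line at the median). Neat1, Malat1, Rmst, Miat and Snhg11 lie below the lower quartile of the other long noncoding genes, and Six3os1 lies above the upper quartile of coding genes.

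For the 8 members with a mean of at least 10 CPM, which leaves out Mirg and Neat1, the genes whose levels moved most like them over the 4 libraries were found by the root-mean-square difference of centred log2 CPM among 10102 genes with a mean of at least 10 CPM. For Six3os1 these were Galnt17 (0.10), Rell1 (0.14) and Six3 (0.16), so that its antisense partner was the third closest. Meg3 was closest to Vamp1 (0.02) and to the mitochondrial gene mt-Cytb (0.05). Miat was closest to Cspp1 (0.03) and Mdm1 (0.03), Rmst to Tmem8 (0.03) and Lca5 (0.05), and Malat1 to Otop3 (0.07) and Rreb1 (0.09). Snhg11 was closest to A330076H08Rik (0.13), Rian to Cep57l1 (0.02) and Vax2os to Kif21b (0.03). With 4 libraries, many genes match a profile closely, and these names describe likeness only.

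Among 48 other long noncoding RNAs that were listed, 46 were found and 41 tested, of which 1 rose and 0 fell in GFP-positive cells (0.234% of all tested genes rose). Paupar, which is transcribed beside Pax6, rose to 92.1 and 45.1 CPM in GFP-positive libraries, against 11.5 and 11.4 CPM in GFP-negative libraries. Its log2 fold change came to 2.58 ± 0.42 (edgeR adjusted p = 0.0310), and leaving out any one library brought the edgeR adjusted p to between 0.0603 and 0.309. It was 0.0637 with no filter, 0.0922 in the legacy edgeR fit and 0.0894 in limma-voom. The median log2 fold change of this list was 0.58, and 27 of its 41 tested genes were lowest in GFP-negative replicate 6. Oip5os1, the most abundant of them, was steady at 443 and 337 CPM in GFP-positive and 398 and 375 CPM in GFP-negative libraries. Mir124-2hg, a host gene of the neuronal microRNA miR-124, had 306 and 476 CPM in GFP-positive and 320 and 143 CPM in GFP-negative libraries.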

How the data were processed

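Raw read counts per Ensembl gene, in whole numbers, were deposited by the authors. The submitters' processing notes name Trimmomatic, STAR 2.7.3a, MultiQC, limma and GRCm38, without saying what each did or in which order. No source used here gives the counting tool, its gene models, whether strand was used, or how reads with several mapping places were handled. A second deposited table of scaled values was not used. Of 55471 gene IDs, GENCODE M21 held 55144, and 27 symbols that had become dates were looked up by ID.

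The test was edgeR 4.0.16 (R 4.3.3): TMM scaling, filterByExpr at a minimum count of 10 and total of 15, then robust glmQLFit and glmQLFTest for GFP-positive minus GFP-negative. Benjamini-Hochberg adjustment ran over 17940 genes, and an adjusted p under 0.05 made a call. CPM values use effective library sizes, with TMM factors of 1.02 and 1.10 in GFP-positive replicates 2 and 3 and 1.02 and 0.873 in GFP-negative replicates 2 and 6. The 3-count floor covers counting error only, because reads carry no molecular identifiers. Each animal is stated to give a sample of each fraction, so libraries within a fraction count as separate animals. It is not stated if replicate 2 is 1 animal in both fractions. On simulated counts for 17940 genes, edgeR found 4% of the genes given a 2-fold change and 32% of those given 4-fold. It found 64% of those given 8-fold and 66% of those given 16-fold. DESeq2 found 16%, 60%, 80% and 80% of the genes at these folds. With 200 genes changed, false calls came to 8 in edgeR, 96 in DESeq2 and 4 in limma-voom.

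Alternatives tried were other scalings (RLE, upper quartile, library size), no filter, DESeq2 1.42.0, a stricter filter (2 or more libraries over 5 CPM), limma-voom (limma 3.58.1), each library left out, and rod, mitochondrial, hemoglobin and sex-linked genes left out. The members were also left out of the library size. A legacy quasi-likelihood fit was chosen after seeing the data. The members and gene lists were chosen with earlier results of these data known. Named genes are all members, their neighbours with at least 10 counts in a library, genes of each list that passed with the 2 most abundant, and the closest profiles. Not every gene under this rule is reported here. Sf1, Celf3, Sox2, Elavl4, Six6, Gm25187 and the genes at 0 counts were named beside that rule, after their values were seen.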

Additional observations from a re-analysis of the deposited data

How the results depend on the processing

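Over all genes, 198 passed in edgeR (42 higher and 156 lower in GFP-positive cells), 106 with no filter, 859 in DESeq2, 92 in limma-voom, 48 in the legacy quasi-likelihood fit and 1 to 336 when a library was left out. Leaving out GFP-negative replicate 6 gave 1 call, GFP-positive replicate 3 gave 5, GFP-positive replicate 2 gave 108 and GFP-negative replicate 2 gave 336. The count of members called was 0 with all libraries in edgeR and 1, Six3os1, with RLE scaling (log2 fold change -1.56), with the filter of over 5 CPM (-1.49) and in DESeq2 (-1.56). It was 0 to 1 when a library was left out. With a library left out, log2 fold changes ran from -0.30 to 1.33 for Meg3, -0.40 to 0.048 for Rian, -0.45 to 2.18 for Mirg, -0.36 to 4.998 for Neat1, -0.63 to 1.401 for Snhg11, 0.38 to 3.43 for Malat1, 0.25 to 1.94 for Miat, 0.28 to 2.00 for Rmst and 0.30 to 1.36 for Vax2os. The directions of Miat, Rmst, Malat1, Vax2os and Six3os1 held in every alternative run. Scaling by library size alone moved the median log2 fold change of all genes to 0.21, against 0.04 with TMM. Per kilobase of the longest transcript in place of all exons, the mean over the 4 libraries was 2.25 CPM for Rian, 0.737 for Mirg, 18.65 for Rmst and 19.99 for Six3os1. Mirg was not tested under the filter of over 5 CPM. The cause of these changes was not tested. No paired analysis was possible because the fractions share only 1 replicate number, 2. With 2 libraries a fraction and a biological coefficient of variation of 55.4%, small differences would mostly be missed at this depth of replication. Large ones were often missed too: on simulated counts edgeR found 32% of the genes given a 4-fold change and 66% of those given 16-fold.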

Other observations

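Of 23 other imprinted genes listed beside the Dlk1-Dio3 domain, 22 were tested and none passed edgeR's adjusted p of 0.05 with Benjamini-Hochberg adjustment or limma-voom, and DESeq2 called 1, Nnat. At an unadjusted p under 0.05 there were 3, against 12.6% of all tested genes. Their log2 fold changes were above 0 for 5 and below 0 for 17, with a median of -0.50. Only 3 of the 22 were lowest in GFP-negative replicate 6, against 9 of the 10 long noncoding RNAs described above. That library was lowest for 33% of all tested genes, 28.3% of protein-coding ones and 49.8% of those of long noncoding biotypes. The 2 lists differ in gene class as well as in imprinting. Nnat, which encodes neuronatin, had 1231 and 1260 CPM in GFP-positive libraries and 2143 and 4019 CPM in GFP-negative libraries, with separate ranges (edgeR adjusted p = 0.297). Ndn, which encodes necdin, had 514 and 579 CPM in GFP-positive libraries and 658 and 1211 CPM in GFP-negative libraries (edgeR adjusted p = 0.498).

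Of the 46 other long noncoding RNAs found in the table, Xist, Tsix and Dlx6os1 had 0 counts in every library. Xist is the RNA that coats the inactive X chromosome of female cells. The submitters state that both sexes were used, but the sex of each of the 4 libraries is not stated, and whether the 0 counts of Xist reflect sex or the counting was not tested.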
